A study of Caenorhabditis elegans with 16 samples.

Results

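The libraries compared were 8 of the 16 in the series: 4 from *Caenorhabditis elegans* given sulforaphane and 4 from untreated control worms, taken by their labels, and all 14328 genes with enough reads were tested. Every animal was SS104, a strain with the glp-4(bn2) mutation, whose effect depends on temperature. They were kept at 15 °C and shifted to 24 °C as L2 or L3 larvae, so that the adults were sterile, and fed *Escherichia coli* OP50 on defined-medium plates. Worms were placed on the assay plates on day 0, as L4 larvae. The bacterial lawn had been covered with sulforaphane at 0.625 mg/mL and left to dry overnight, or was left untreated, and polyA RNA was taken from whole animals on day 3 of adulthood. No carrier is named in the labels for the untreated plates, and a carrier's own effect, if one was used, cannot be told apart from that of sulforaphane. The other 8 libraries, 4 with curcumin phytosome at 5 mg/mL and 4 with curcumin and sulforaphane at the same doses, are used where stated.

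Sulforaphane is an electrophilic isothiocyanate that forms when broccoli tissue is crushed. In mammals it reacts with cysteines of KEAP1 and releases the transcription factor NRF2, and in the worm the related factor SKN-1 is held back by a different protein, WDR-23. Such factors switch on detoxification in steps: oxidation or reduction of the compound (cytochromes P450 and dehydrogenases), coupling to glutathione or a sugar (glutathione S-transferases and UDP-glucuronosyltransferases), and export by ABC transporters. In the worm most of this takes place in the intestine.

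The control libraries held 14960535 to 15720697 counted reads and the sulforaphane libraries 14315538 to 15839232. On the first principal component of the 8 libraries, which held 36.3% of the variance, the controls lay between -31.13 and -19.94 and the sulforaphane libraries between 17.61 and 30.44. Replicates of a group differed by more than sampling noise, with a chi-square per degree of freedom of 3.14 to 12.2. Marker genes of 12 tissues were read in every library, and 1 of them, the intestinal actin gene *act-5*, was called (log2 change 0.58). Of the 5 hypodermis markers, *dpy-7*, *rol-6*, *col-10* and *wrt-2* had too few reads to test in these adults. The summed CPM (CPM being counts scaled to a common library size with TMM factors) of the intestine markers was 1120 to 1250 in the controls and 1250 to 1400 with sulforaphane. That of the excretory canal markers was 291 to 308 and 330 to 338, and that of the germline markers was 360 to 468 and 333 to 399. The median log2 change of these markers was -0.045 for the intestine, -0.161 for the excretory canal and -0.118 for the germline. The sums of the intestine and excretory canal markers thus rose while their medians did not. The sperm markers had the lowest median log2 change of the 12 tissues, -0.56, with sums of 19.8 to 33.5 and 13.6 to 20.1 CPM, and none of the 7 tested was called. The part of such shifts in the results was not tested, and in whole-animal RNA fewer cells of a type and less RNA per cell cannot be told apart.

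A gene was called when the edgeR quasi-likelihood test gave a Benjamini-Hochberg adjusted p under 0.05 over all tested genes. Most called genes moved little: of the 961, which are 6.71% of those tested, 546 changed by less than 1.5-fold, and the median log2 change was 0.47 among the 621 that rose and -0.59 among the 340 that fell. The balance depended on scaling: 64.6% of the calls were higher here, and 53.4% with library size alone. At the far end were 25 genes that rose at least 8-fold and 10 that fell at least 8-fold. The values of the 4 controls and the 4 sulforaphane libraries did not overlap in 884 of the 961, against 13.8% of all tested genes. Called genes were unevenly spread over the genome: 10.6% of tested genes on chromosome V were called, and 3.48% on chromosome I and 3.64% on chromosome III. Chromosome V held 56 of the 111 genes that rose at least 2-fold, and 2900 of the 14328 tested genes.

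**Figure D1:**
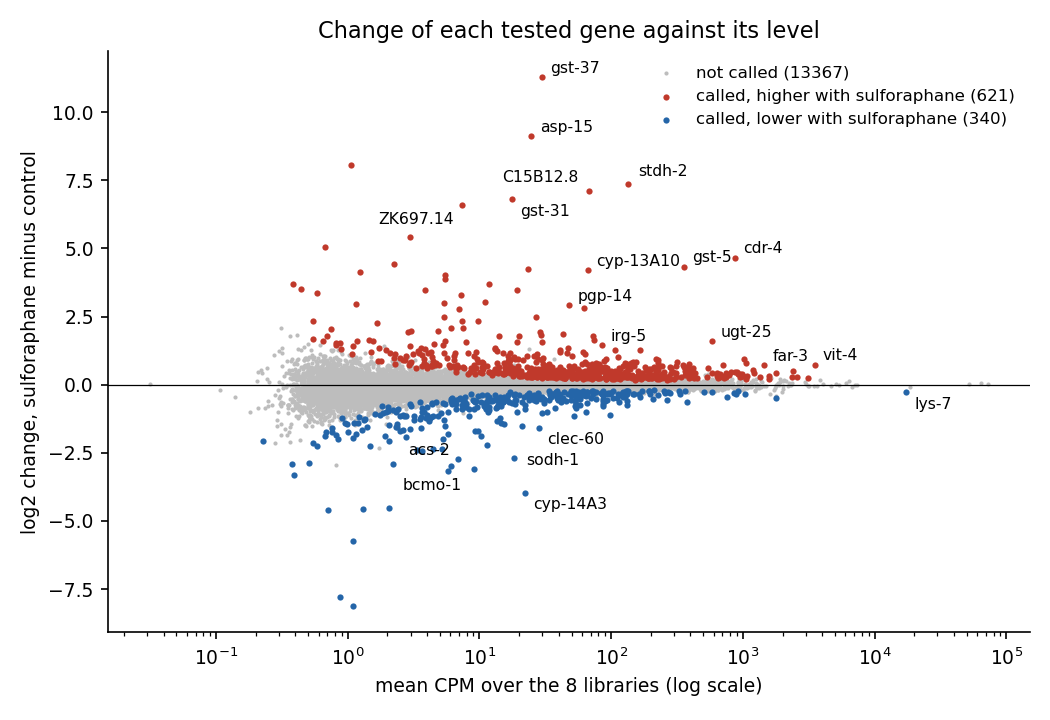
Each point is a tested gene, with its mean CPM over the 8 libraries on a log axis and its log2 change, sulforaphane minus control, on the vertical axis. The 621 genes called higher are red, the 340 called lower are blue, and all but 209 of the 961 called points lie within a log2 change of 1 of the zero line.

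The first step of detoxification did not move in 1 direction. Of the 80 cytochrome P450 genes listed, 64 were tested, of which 12 rose and 13 fell, against 4.33% of all tested genes that rose and 2.37% that fell. The median log2 change of the 64 was -0.01, with -0.02 over all genes, and with DESeq2 size factors it was above 0. By name, 3 of 10 tested cyp-13A genes rose and none fell, and 3 of 9 cyp-33C genes rose and 1 fell. Of 5 cyp-14A genes 3 fell and none rose, of 7 cyp-34A genes 4 fell and 1 rose, and of 7 cyp-35 genes 4 fell and none rose. These subfamilies were not among the gene lists and were picked for description. *cyp-13A10* (NCBI Gene 174522, chromosome II, 9660839 to 9662884, WBcel235) had 7.27, 6.33, 6.68 and 6.70 CPM in the controls and 134, 136, 113 and 120 with sulforaphane. All 4 treated libraries stood far above all 4 controls, which were nearly equal, an 18.6-fold rise (log2 change 4.22, SE 0.10, edgeR adjusted p 7.17e-20). *cyp-33C2* rose from 2.32 ± 0.167 to 44.0 ± 8.27 CPM (SD, n = 4, edgeR adjusted p 3.88e-14). Its relative *cyp-33C1* had 8 reads in all controls together and 353 with sulforaphane, a ratio of 45.2 with a counting interval of 22.7 to 106. In the other direction, *cyp-14A3* had the lowest log2 change of the family, -3.96 (edgeR adjusted p 7.3e-13), and its neighbour *cyp-14A2* (187184, chromosome X, 13267562 to 13269686) had 7.96, 9.46, 8.24 and 8.16 CPM in the controls and 2.40, 2.01, 2.25 and 1.89 with sulforaphane. The groups did not overlap, and the log2 change was -1.98 (SE 0.16, edgeR adjusted p 3.85e-09). *cyp-34A10* fell by 1.89 on the log2 scale, from 3.05 ± 0.350 to 0.811 ± 0.270 CPM (SD, n = 4, edgeR adjusted p 4.37e-05).

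Other enzymes of oxidation and reduction moved in smaller numbers. Of 32 tested short-chain and steroid dehydrogenase genes 7 rose and 3 fell. The largest rise among them was that of *stdh-2*, a putative steroid dehydrogenase, at 163-fold, and the next, *dhs-5*, had a log2 change of 0.62 (edgeR adjusted p 5.18e-05), so the family holds 1 very large change and several small ones. *dhs-23* fell by 1.12 on the log2 scale. Of 13 aldehyde dehydrogenase genes 3 rose, led by *alh-5* (log2 change 0.92, edgeR adjusted p 0.000124), and none fell. Among 4 tested flavin monooxygenase genes *fmo-3* rose, from 40.5 ± 4.90 to 60.7 ± 5.42 CPM (SD, n = 4, edgeR adjusted p 0.000407). *fmo-1* fell by 0.88 on the log2 scale (edgeR adjusted p 0.0257), but its groups overlapped, and without control replicate 1 or 4 or sulforaphane replicate 2, 3 or 4 it was not called (edgeR adjusted p up to 0.125). Nor was *fmo-1* called by limma on FPKM values. A gene outside these families showed one of the largest responses. C15B12.8 (259861, chromosome X, 6474264 to 6476645), annotated with the FAD-dependent DAO oxidoreductase domain, had 0.822, 1.40, 0.874 and 0.765 CPM in the controls and 116, 144, 144 and 133 with sulforaphane. The gene was close to silent in all 4 controls and moderately expressed in all 4 treated libraries, a 139-fold difference (log2 change 7.12, SE 0.15, edgeR adjusted p 6.09e-21). ZK697.14, an uncharacterised gene, had 9 reads in all controls together and 898 with sulforaphane, a ratio of 102 with a counting interval of 53.6 to 224.

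Glutathione S-transferases, which couple glutathione to electrophiles, moved mostly upwards. Of the 49 such genes listed, 45 were tested, of which 17 rose and 2 fell. Their median log2 change was 0.41, and their summed level went from 632 to 704 CPM in the controls to 1536 to 1864 CPM with sulforaphane. *gst-5* (187537, chromosome II, 10950352 to 10951603) had 32.1, 26.3, 39.5 and 36.4 CPM in the controls and 801, 725, 580 and 600 with sulforaphane. It rose 20.1-fold without overlap (log2 change 4.33, SE 0.13, edgeR adjusted p 3.84e-18), and replicates 1 and 2 were the higher ones among the treated. The extreme member was *gst-37*, with 1 read in all controls and 3624 with sulforaphane, a ratio of 3710 with a counting interval of 666 to 147000. *gst-31* had 19 reads in all controls and 2139 with sulforaphane, a ratio of 115 with a counting interval of 73.7 to 192. *gst-12* rose from 0.637 ± 0.169 to 10.4 ± 1.96 CPM (SD, n = 4, edgeR adjusted p 3.11e-13). *gst-19* went against the family, from 5.75, 5.2, 4.99 and 4.21 CPM to 1.34, 2.47, 3.02 and 1.95 (log2 change -1.19, SE 0.23, edgeR adjusted p 0.00153). The other called member that fell, *gst-34*, was below 1 CPM in the controls and is named after its values were seen. Reads shared between similar genes of this and the other large families were not tested, and the members are uncertain to that extent.

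UDP-glucuronosyltransferases, which couple sugars to small molecules, followed the same direction in a smaller share of members: of 62 tested, 14 rose and 3 fell, with a median log2 change of 0.11. *ugt-9* (178883, chromosome V, 4896048 to 4897969) had 2.78, 2.20, 3.00 and 4.53 CPM in the controls and 45.5, 37.7, 26.2 and 32 with sulforaphane. The groups lay far apart, an 11.2-fold rise (log2 change 3.49, SE 0.21, edgeR adjusted p 1.64e-11). *ugt-40* and *ugt-37* rose by 3.29 and 2.79 on the log2 scale, but they overlap each other in the annotation, so that their reads are uncertain. A further member that rose was *ugt-25*, which the rule for named genes did not select and which is named after its values were seen. It had 276, 281, 313 and 300 CPM in the controls and 941, 928, 823 and 839 with sulforaphane. All treated libraries were above all controls, a 3.02-fold rise (log2 change 1.59, SE 0.07, edgeR adjusted p 1.57e-14). Falls were smaller, and the largest was in *ugt-1* (log2 change -0.64, edgeR adjusted p 0.000666).

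**Figure D2:**
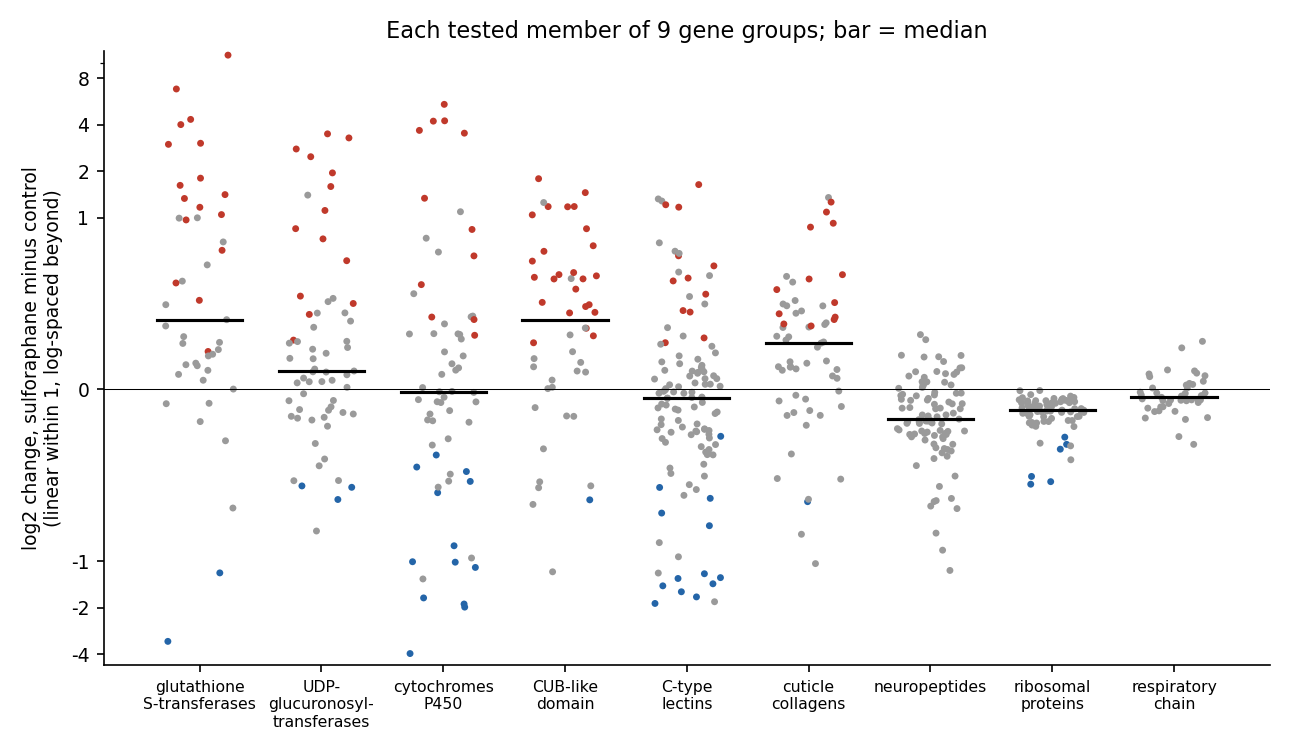
Log2 change, sulforaphane minus control, of each tested member of 9 gene groups, on an axis that is linear within 1 and log-spaced beyond, with the median as a bar. Red points were called higher, blue points lower and grey points neither. The medians were 0.41 for glutathione S-transferases, 0.40 for CUB-like genes and 0.27 for cuticle collagens, and -0.17 for neuropeptides, of which none was called.

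Transport out of the cell showed a few clear members. Of 51 tested ABC transporter genes 6 rose and 1 fell, and the median log2 change was 0.03. *pgp-14* (181416, chromosome X, 12744723 to 12749580), a P-glycoprotein gene, had 11.8, 7.46, 9.92 and 15.7 CPM in the controls and 96.2, 71.9, 64.9 and 107 with sulforaphane. All treated libraries lay well above all controls, a 7.56-fold rise (log2 change 2.92, SE 0.17, edgeR adjusted p 6.58e-12). *pgp-12* rose by 1.05 (edgeR adjusted p 1.22e-06) and *abt-4* by 0.80 (edgeR adjusted p 1.27e-06) on the log2 scale. The transporter that fell was *pmp-4*, named for its likeness to peroxisomal transporters (log2 change -0.39, edgeR adjusted p 0.0273). Without control replicate 1, 3 or 4 or sulforaphane replicate 3 or 4 it was not called (edgeR adjusted p up to 0.122), nor by limma on FPKM values.

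A large rise in an abundant transcript was that of *cdr-4* (259654, chromosome V, 12407366 to 12408625), a gene of a family named for its induction by cadmium. It had 69.0, 71.6, 67.4 and 57.5 CPM in the controls and 1832, 2047, 1421 and 1422 with sulforaphane. The controls were tight and the treated libraries all far higher, a 25.3-fold rise (log2 change 4.66, SE 0.12, edgeR adjusted p 1.26e-19). Few other metal-related genes were called. Of 12 tested genes for metallothioneins, ferritins, cadmium-responsive proteins and metal carriers, *cdr-4* and, by 0.80 on the log2 scale, *cdr-2* rose and *ftn-1* and *mtl-1* fell. *ftn-1*, a ferritin gene that stores iron, had 336, 334, 302 and 282 CPM in the controls and 194, 234, 224 and 198 with sulforaphane. Every treated library was below every control (log2 change -0.56, SE 0.10, edgeR adjusted p 0.000315). The metallothionein gene *mtl-1* (log2 change -0.53, edgeR adjusted p 0.0347) was not called without control replicate 1, 2 or 3 or sulforaphane replicate 2 or 4 (edgeR adjusted p up to 0.12). The DESeq2 test and limma on FPKM values did not call it either.

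**Figure D3:**
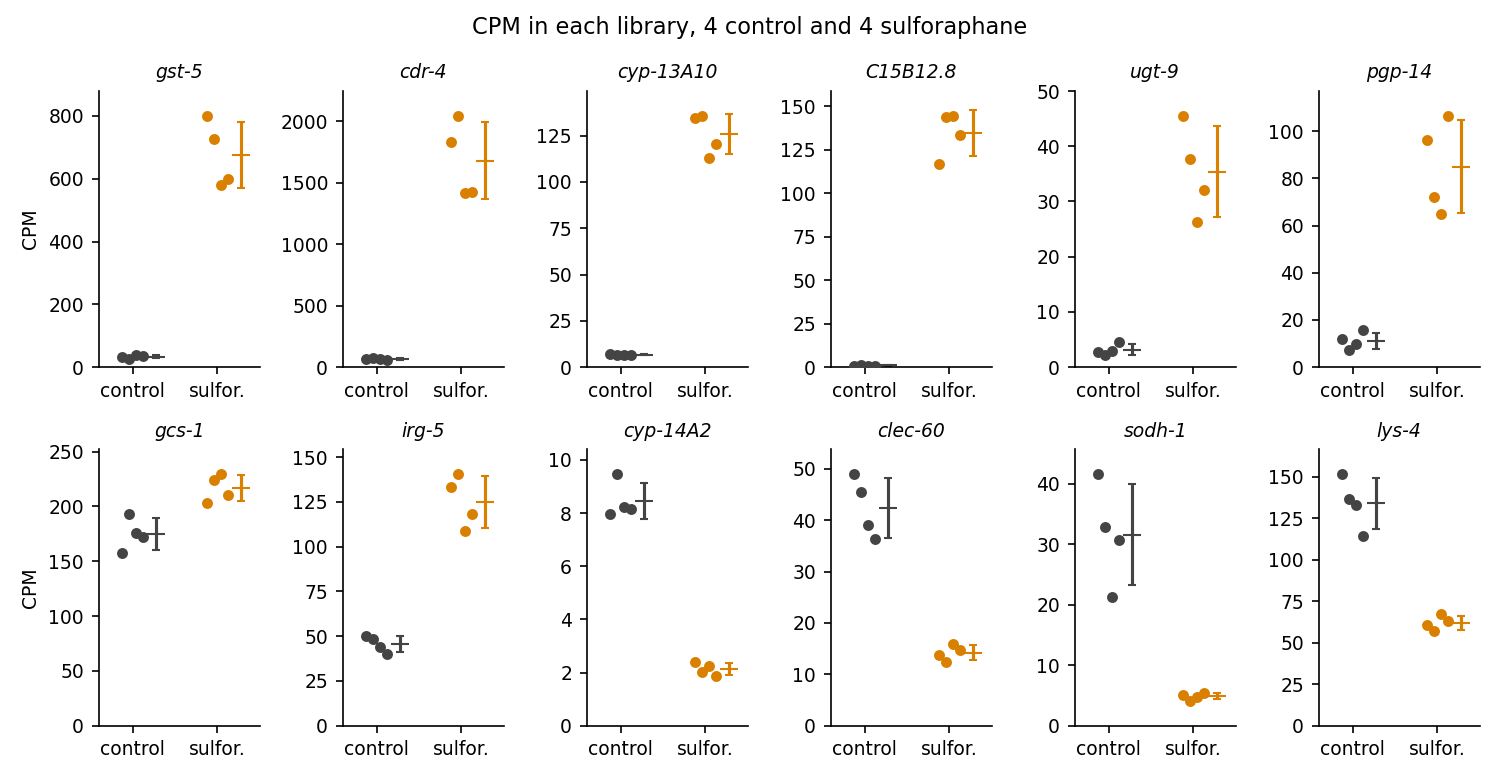
CPM of 12 genes in each of the 4 control and 4 sulforaphane libraries, on linear axes from 0, with the mean ± SD as a bar beside the points. The 2 groups are apart in every panel, far apart for *gst-5*, *cdr-4* and C15B12.8 and by a small margin for *gcs-1*, at 158 to 193 CPM against 203 to 229.

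Upstream of these enzymes the changes were small. Of 7 SKN-1 regulator genes, *skn-1* itself rose (log2 change 0.28, SE 0.07, edgeR adjusted p 0.00608), although it overlaps *csn-5* in the annotation and is uncertain, and the other 6 were not called. *gcs-1*, the rate-limiting enzyme of glutathione synthesis, had 158, 193, 176 and 172 CPM in the controls and 203, 224, 229 and 210 with sulforaphane. The treated libraries were all above the controls, by a small step (log2 change 0.31, SE 0.07, edgeR adjusted p 0.00402). E01A2.1, its annotated light chain, had a log2 change of 0.37 (edgeR adjusted p 0.0198), overlaps *poml-2* and was not called without control replicate 1 or 4 or sulforaphane replicate 3 (edgeR adjusted p up to 0.0694). In all, 5 of 13 tested genes of glutathione and thioredoxin metabolism rose and none fell, with 3 to 5 called higher when each of the 8 libraries was left out in turn. The others were *trx-4*, *glrx-10* and the glutathione reductase gene *gsr-1*, the last 2 of which overlap other genes and are uncertain. *trx-4* (edgeR adjusted p 0.0416) was not called without control replicate 2 or 4 or sulforaphane replicate 1, 2 or 4 (edgeR adjusted p up to 0.11), nor with library size alone.

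Of 7 genes listed for NADPH supply and the pentose phosphate pathway 5 rose, not all of which make NADPH, the reductant of glutathione. T25B9.9, which encodes 6-phosphogluconate dehydrogenase, had 265, 252, 244 and 230 CPM in the controls and 342, 371, 323 and 318 with sulforaphane. Every treated library was above every control (log2 change 0.45, SE 0.06, edgeR adjusted p 1.82e-05). Log2 changes were 0.32 for glucose-6-phosphate dehydrogenase (*gspd-1*), 0.29 for transaldolase (*tald-1*), 0.27 for transketolase (*tkt-1*) and 0.24 for isocitrate dehydrogenase (*idh-1*), with edgeR adjusted p-values of 0.0028 to 0.0154. *tkt-1* was not called without control replicate 1 or sulforaphane replicate 2 or 3 (edgeR adjusted p up to 0.0604), nor *idh-1* with library size alone (edgeR adjusted p 0.0788). Malic enzyme (*men-1*) had a log2 change of 0.08 and was not called.

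Enzymes that remove superoxide and peroxides rose in 5 of 18 cases and fell in 1. The cytosolic superoxide dismutase *sod-1* had 192, 177, 176 and 168 CPM in the controls and 299, 307, 249 and 237 with sulforaphane. It rose in all 4 treated libraries (log2 change 0.62, SE 0.09, edgeR adjusted p 2.95e-05). *gpx-1* and *gpx-5*, annotated as glutathione peroxidases, and the peroxiredoxin *prdx-2* rose by 0.44 to 0.47 on the log2 scale, while *gpx-3* fell by 1.34 (edgeR adjusted p 0.000248). *gpx-1* overlaps *drsh-1* and is uncertain, and *prdx-2* is named after its values were seen. Among 21 tested genes of sulfide and cysteine metabolism and the HIF-1 pathway, *cth-1*, *cth-2* and *cdo-1* rose and *sqrd-1* and *gst-19* fell. *cth-1* and *cth-2* make cysteine from cystathionine, and *cdo-1*, which overlaps another gene and is uncertain, oxidises cysteine. *cth-2* (edgeR adjusted p 0.0208) was not called without control replicate 1 or 4 or sulforaphane replicate 2 or 3 (edgeR adjusted p up to 0.116). *sqrd-1*, the sulfide oxidase of mitochondria, went from 51.3 ± 4.96 to 32.5 ± 5.92 CPM (SD, n = 4, log2 change -0.65, SE 0.12, edgeR adjusted p 0.000626).

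Genes listed for protein quality control had small changes, apart from *sdz-8* (log2 change 1.60), whose place on its list was not tested. Of 19 cytosolic heat shock genes 2 rose and none fell, with 1 to 2 higher when each of the 8 libraries was left out in turn and 1 with library size alone. *hsp-43* rose by 0.27 on the log2 scale (edgeR adjusted p 0.00703), and *hsp-17* lies over a gene with far more reads and is uncertain. Of 15 genes of the mitochondrial unfolded protein response, the transcription factor gene *atfs-1* rose (log2 change 0.41, edgeR adjusted p 0.00114), and its chaperone target *hsp-6* had 176 ± 12.3 and 165 ± 9.34 CPM and was not called. Of 23 genes of the unfolded protein response of the endoplasmic reticulum, 3 rose and none fell, namely *hsp-4*, *pdi-2* and *sdz-8*, with 3 to 5 higher when each of the 8 libraries was left out in turn. *pdi-2*, a protein disulfide isomerase, went from 947 ± 46 to 1186 ± 58.4 CPM (SD, n = 4, edgeR adjusted p 0.00622), whereas *xbp-1* was not called. Proteasome subunits showed a small shared shift: 32 of 33 had a log2 change above 0, with a median of 0.15, and 6 were called. The largest called change among them was 0.31, in *pas-4* (edgeR adjusted p 0.00212). With library size alone 3 subunits were called, with the DESeq2 test 11, and 2 to 7 when each of the 8 libraries was left out in turn.

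Genes of the innate immune response moved in both directions. CUB-like domain genes, many of which are induced by pathogens in the intestine, had the highest share of rises among the lists with at least 11 tested genes: of 48 tested, 25 rose and 1 fell, with a median log2 change of 0.40. Their summed level overlapped between the groups, at 8708 to 11380 CPM in the controls and 9952 to 11380 with sulforaphane. *irg-5* (185307, chromosome V, 13737010 to 13738474) had 50, 48.4, 43.8 and 40.3 CPM in the controls and 133, 140, 109 and 118 with sulforaphane. The groups did not overlap, and the rise was 2.74-fold (log2 change 1.45, SE 0.10, edgeR adjusted p 3.55e-10). *dod-17* had 6.51, 6.80, 7.05 and 4.66 CPM in the controls and 21.7, 26.2, 19.3 and 19.5 with sulforaphane (log2 change 1.79, SE 0.15, edgeR adjusted p 7.8e-09). C17H12.6 rose by 1.18 on the log2 scale, from 37.2 ± 5.46 to 84.3 ± 5.37 CPM (SD, n = 4, edgeR adjusted p 1.3e-07). The member that fell was *irg-4* (log2 change -0.64, edgeR adjusted p 0.0177), which was not called without control replicate 4 or sulforaphane replicate 1 (edgeR adjusted p up to 0.0703). Curcumin against the same 4 controls gave 3 CUB-like genes higher and 36 lower, against 6.87% and 7.71% of all genes, and C17H12.6 then had a log2 change of -4.08. Both comparisons share the control libraries, so their values are set side by side here without a measure of likeness.

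C-type lectins, secreted sugar-binding proteins of which many respond to infection, were split, with 12 of 118 tested genes higher and 13 lower and a median log2 change of -0.05. When each of the 8 libraries was left out in turn, 7 to 12 were higher and 10 to 12 lower. *clec-60* (191384, chromosome II, 10480043 to 10481874) had 49.0, 45.5, 39.1 and 36.3 CPM in the controls and 13.9, 12.4, 15.9 and 14.7 with sulforaphane. All treated libraries were below all controls, and the log2 change was -1.58 (SE 0.11, edgeR adjusted p 1.66e-10). *clec-52* was at 14 ± 0.435 and 4.30 ± 0.254 CPM (SD, n = 4, log2 change -1.70, SE 0.10, edgeR adjusted p 1.8e-11). Lysozymes split likewise, with 3 of 12 higher and 4 lower, the lowest log2 change being that of *ilys-3* (-3.18, edgeR adjusted p 1.2e-05). *lys-4* (178086, chromosome IV, 11621429 to 11623174) had 152, 136, 133 and 114 CPM in the controls and 60.9, 56.7, 67.2 and 63 with sulforaphane. The treated values were tight and below every control (log2 change -1.11, SE 0.09, edgeR adjusted p 1.99e-09), and *ilys-2* fell by 1.14. *lys-2* and *ilys-5* rose by 0.46 and 0.45 on the log2 scale (edgeR adjusted p 0.00749 and 0.0018).

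Other immune groups showed single genes rather than families. *irg-7*, named for its response to infection, had 2049, 2044, 2037 and 1825 CPM in the controls and 2782, 2921, 2847 and 2798 with sulforaphane, so that the groups were apart (log2 change 0.51, SE 0.06, edgeR adjusted p 1.12e-06). Among 20 saposin-domain genes, *spp-12* had 3.41, 3.07, 2.56 and 3.89 CPM in the controls and 13.4, 20.9, 15.3 and 14.9 with sulforaphane, all above the controls (log2 change 2.32, edgeR adjusted p 4.79e-11). Of 29 tested pals genes, a family of which several members respond to intracellular pathogens, 3 fell and none rose. None of the 11 genes of the p38 PMK-1 kinase pathway was called by edgeR, with 2 at an unadjusted p under 0.05. DESeq2 called 1 of them, and edgeR called 2 with the replicate number as a block. Of 15 epidermal antimicrobial peptide genes 1, *cnc-2*, rose (log2 change 0.82, edgeR adjusted p 0.000275).

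**Figure D4:**
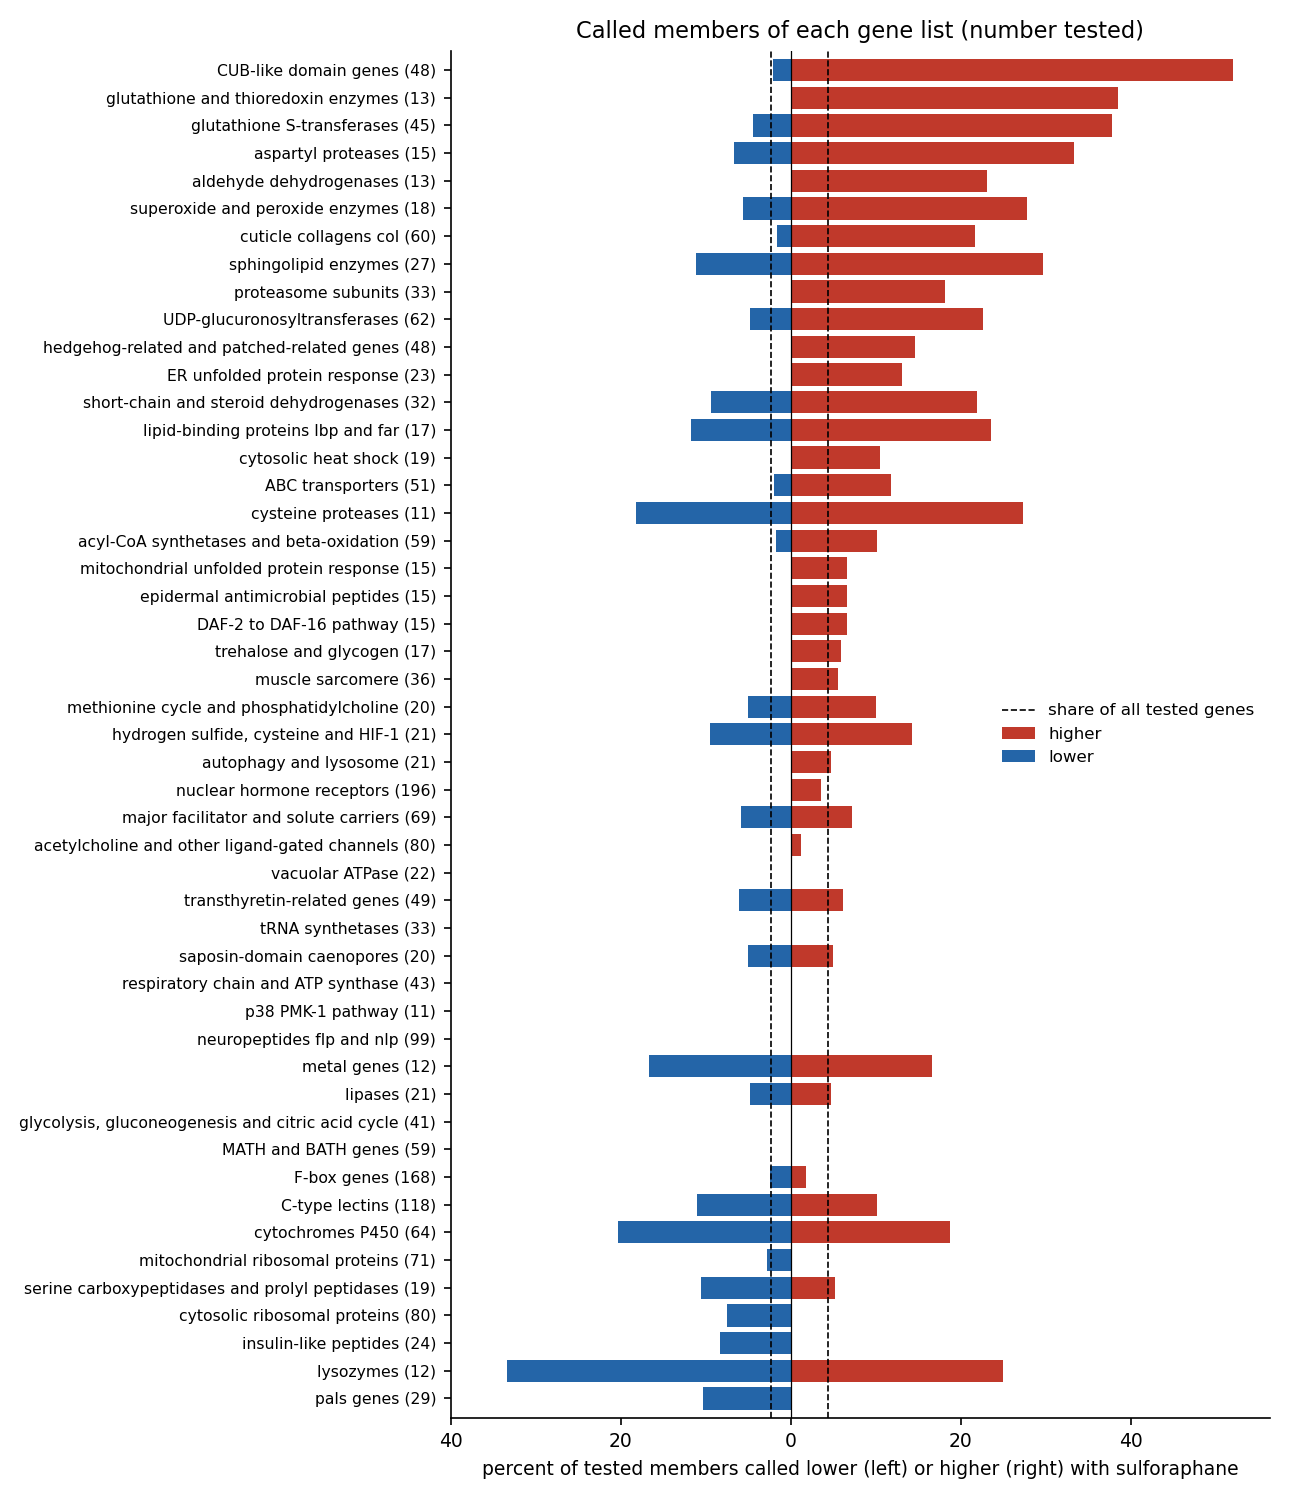
Percent of the tested members of each gene list with at least 11 tested members that were called higher (right, red) or lower (left, blue) with sulforaphane, with the number tested in brackets. Dashed lines mark the shares over all tested genes, 4.33% higher and 2.37% lower. CUB-like genes and glutathione genes reach farthest to the right, and lysozymes and cytochromes P450 to the left.

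Digestive proteases were called more often than the 6.71% over all genes, at 40% of aspartyl and 45.5% of cysteine protease genes. Of 15 tested aspartyl protease genes 5 rose and 1 fell, with 3 to 5 higher when each of the 8 libraries was left out in turn. The median log2 change of the 15 was -0.07, with 7 of them above 0. The extreme member was *asp-15*, with 5 reads in all controls and 2994 with sulforaphane, a ratio of 614 with a counting interval of 263 to 1890. *asp-14* had 108, 102, 97.7 and 83.5 CPM in the controls and 246, 244, 227 and 216 with sulforaphane, with no overlap (log2 change 1.26, SE 0.10, edgeR adjusted p 2.6e-09). Of 11 cysteine protease genes 3 rose and 2 fell, with *cpr-3* at a log2 change of 0.61 and *cpr-2* at -2.41 (edgeR adjusted p 0.000288 and 0.00366). Collagens of the cuticle were called mostly higher, with 13 of 60 tested col genes up, 1 down and a median log2 change of 0.27. The table lists 159 col genes, most of which had too few reads in these adults. *col-80* went from 62.8 ± 13.4 to 151 ± 26.8 CPM (SD, n = 4, log2 change 1.26, SE 0.13, edgeR adjusted p 3.01e-07). Hedgehog-related and patched-related genes, which the worm uses in the epidermis among other tissues, rose in 7 of 48 cases and fell in none. *ptr-22*, a patched-related gene, had 13.5, 8.06, 10.4 and 15.4 CPM in the controls and 62.1, 43.6, 37.1 and 40.8 with sulforaphane, so that every treated library exceeded every control (log2 change 1.95, SE 0.17, edgeR adjusted p 1.34e-08). *ptc-3*, a patched homologue, rose by 0.68 (edgeR adjusted p 6.1e-06).

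In lipid metabolism 2 falls stood out. *sodh-1* (179627, chromosome V, 11888248 to 11889650), an alcohol dehydrogenase gene, had 41.6, 32.9, 21.3 and 30.7 CPM in the controls and 5.02, 4.15, 4.82 and 5.34 with sulforaphane. The controls varied, but all were above the treated libraries (log2 change -2.71, SE 0.20, edgeR adjusted p 7.77e-10). *acs-2*, an acyl-CoA synthetase gene that rises in fasting, had 15.4, 8.26, 18.4 and 6.06 CPM in the controls and 2.05, 2.14, 1.48 and 1.57 with sulforaphane. The controls spread widely and the treated libraries were low and close together (log2 change -2.73, SE 0.67, edgeR adjusted p 0.011). Of the 59 tested genes of fatty acid activation and oxidation no other fell and 6 rose, with log2 changes of 0.22 to 0.38, and 1 to 8 were higher when each of the 8 libraries was left out in turn. The lipase-like gene *lips-11* fell by 1.45 on the log2 scale (edgeR adjusted p 4.69e-06).

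Genes of lipid transport moved both ways. Of 17 tested lbp and far genes 4 rose and 2 fell, with a median log2 change of -0.06. *far-3*, a fatty acid and retinol binding protein gene, had 1195, 1069, 1082 and 1003 CPM in the controls and 1825, 1881, 1767 and 1756 with sulforaphane, without overlap (log2 change 0.73, SE 0.07, edgeR adjusted p 1.01e-07). *lbp-7* rose by 1.14 (edgeR adjusted p 1.6e-07). *far-7* fell by 0.55 and *far-8* by 0.36 (edgeR adjusted p 0.00911 and 0.014), but neither was called without control replicate 1, nor *far-8* without sulforaphane replicate 2 or 3 (edgeR adjusted p up to 0.073). Of the 6 vitellogenin genes, which encode yolk proteins, *vit-4* and *vit-3* were called. *vit-4* had 2522, 2752, 2735 and 2499 CPM in the controls and 4141, 4678, 4433 and 4258 with sulforaphane (log2 change 0.74, SE 0.07, edgeR adjusted p 1.85e-08), and the ranges were far apart. Fatty acid elongases rose in 4 of 9 cases, and in 1 to 4 when each of the 8 libraries was left out in turn, with *elo-2* at a log2 change of 0.41 (edgeR adjusted p 0.00148). The desaturase *fat-3*, which makes long polyunsaturated fatty acids, fell by 0.31 (edgeR adjusted p 0.00246). Sphingolipid enzymes rose in 8 of 27 cases and fell in 3. The serine palmitoyltransferase genes *sptl-2* and *sptl-3*, which start sphingolipid synthesis, rose by 0.56 and 0.41 on the log2 scale, and the sphingomyelinase genes *asm-3* and *asm-2* fell by 0.77 and 0.72 (edgeR adjusted p 5.6e-07 and 5.01e-06). *sptl-3* is named after its values were seen.

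Few signalling genes were called. Of 196 tested nuclear hormone receptor genes 7 rose and none fell, a share of 3.57% called that is below the 6.71% over all genes, among them *nhr-205* (log2 change 1.22, edgeR adjusted p 0.000248). Of 24 insulin-like peptide genes 2 fell, or 8.33%. The median log2 change of the 24 was -0.22, with 4 of them above 0. *ins-19* had 9.42, 6.73, 7.80 and 8.48 CPM in the controls and 3.18, 2.34, 3.15 and 2.70 with sulforaphane, with no overlap (log2 change -1.51, SE 0.17, edgeR adjusted p 5.45e-07). *ins-6* fell by 0.60 (edgeR adjusted p 0.0146), but not without control replicate 3 or sulforaphane replicate 3 or 4 (edgeR adjusted p up to 0.0596). In the insulin pathway from DAF-2 to DAF-16, the kinase gene *pdk-1* rose (log2 change 0.64) and no other of its 15 genes was called. *sams-1*, which makes the methyl donor S-adenosylmethionine, rose by 0.56 (edgeR adjusted p 2.26e-06). Among carriers, *hmit-1.1*, an inositol cotransporter gene, had 16.4, 13.3, 14 and 16.3 CPM in the controls and 52.8, 45.6, 39.2 and 41.2 with sulforaphane, a clear separation (log2 change 1.57, SE 0.10, edgeR adjusted p 8.33e-11). *mct-1* was also called (log2 change 3.49, edgeR adjusted p 0.0191), but it rests on replicate 4 of the sulforaphane group, at 25.7 CPM against 0.424, 1.04 and 0.964 in the others, and it was not called without that library or without control replicate 1, 2 or 3. Limma on FPKM values did not call *mct-1* either.

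Large housekeeping groups had few or no calls. No gene was called by edgeR among 43 of the respiratory chain, 41 of glycolysis, gluconeogenesis and the citric acid cycle, 33 tRNA synthetases and 22 of the vacuolar ATPase. None of the 99 tested neuropeptide genes was called either, although their median log2 change was -0.17. At an unadjusted p under 0.05 stood 3 neuropeptide genes higher and 16 lower, 9 vacuolar ATPase genes higher, 4 of glycolysis and the cycle higher, 1 tRNA synthetase gene higher and 3 lower, and 1 respiratory chain gene lower. The DESeq2 test called 1 neuropeptide gene lower and 5 vacuolar ATPase genes, 1 of glycolysis and the cycle and 1 tRNA synthetase gene higher. With DESeq2 size factors 3 genes of the vacuolar ATPase and 1 tRNA synthetase gene were higher, and with library size alone 1 tRNA synthetase gene and 1 neuropeptide gene were lower. With the replicate number as a block in the edgeR fit, 3 genes of glycolysis and the cycle and 3 of the vacuolar ATPase were higher. That fit also called 1 respiratory chain gene lower, and 1 gene each way among tRNA synthetases and among neuropeptides. All 80 tested ribosomal protein genes had a log2 change below 0, with a median of -0.12, and 6 of them fell. That was 7.5% of them, where 2.37% of all tested genes fell. With each of the 8 libraries left out in turn 1 to 5 were lower, and 8 with library size alone. The DESeq2 test called 5 lower, and limma on FPKM values with 1 added called 1. In the combination against curcumin 7 of the 80 were lower, and none of these 6 was among them. Of the 6, *rpl-39*, *rpl-29*, *rps-28*, *rps-29* and *rpl-38* have gene lengths of 236 to 287 bases, and their log2 changes were -0.55 to -0.32. *rps-29* and *rpl-38* are named after their values were seen, and the groups did not overlap in *rps-28* but did in the other 4. Those 4 were not called without control replicate 1 or 3 or sulforaphane replicate 1 or 2, nor by limma on FPKM values.

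Gene length was then set beside the change over all tested genes, a step chosen after the ribosomal values were seen. The 189 genes of up to 300 bases had a median log2 change of -0.18, with 4 higher and 15 lower. The 855 genes of 300 to 500 bases had a median of -0.10, with 25 higher and 44 lower. Each longer class had a median of -0.03 to -0.01. In the combination against curcumin, the genes of up to 300 bases had a median of -0.001. Neuropeptide genes had a median length of 591 bases and insulin-like genes of 445.5, against 1369 over all tested genes. Among ribosomal protein genes, the 45 of at least 500 bases had a median log2 change of -0.11 and the 35 shorter ones of -0.13. Of the 6 that were called, 5 were among the shorter ones. The part of length in the values of ribosomal protein, neuropeptide and insulin-like genes was not tested.

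The libraries with curcumin allow sulforaphane to be read a second time, as the combination against curcumin alone, in 8 libraries that the main comparison does not use. That comparison called 1049 genes, 7.32% of those tested, with 4.65% higher and 2.67% lower. Of the 961 genes, 867 (90.2%) had the same sign there, against 62.7% of all tested genes, and 478 were also called with the same sign, which is 49.7% of the 961 and 45.6% of the 1049. In 11 genes the sign was opposite and called. Of the 209 genes with at least a 2-fold change 199 kept their sign. Among detoxification genes, all 19 called glutathione S-transferases had the same sign and 16 were called again, and of 25 called cytochromes P450 all had the same sign and 24 were called again. *cdr-4* had a log2 change of 4.32, *gst-5* of 3.89 and *cyp-13A10* of 4.23 on top of curcumin. Of the 26 called CUB-like genes 20 had the same sign and 11 were called again, and of the 6 called proteasome subunits none was called again. Among 25 called C-type lectins 16 had the same sign and 7 were called again. For the 14 called col genes these counts were 11 and 4, and the median of the tested col genes there was 0.007. Of the 4 called elongases 3 had the same sign and none was called again.

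Whether the response to sulforaphane differed with curcumin present was tested by the interaction, which called 0.991% of the tested genes, 67 of them among the 961. Of these 67, 37 had risen and had an interaction below 0, and 19 had fallen and had one above 0. The interaction contains the change by which the 961 were chosen, with its sign turned, so this split is partly set by the choice and is given as a description. *spp-12* rose by 2.32 on the log2 scale without curcumin and by 0.79 with it (interaction -1.53, edgeR adjusted p 2.74e-05), in libraries where curcumin alone had raised it to 232 to 316 CPM. *clec-61* fell by 1.88 without curcumin and had a log2 change of -0.09 with it (interaction 1.78, edgeR adjusted p 5.92e-05). *asp-14* went from 1.26 to 0.23 and *hmit-1.1* from 1.57 to 0.51. *asp-17* rose by 0.63 without and 1.56 with curcumin (interaction 0.93, edgeR adjusted p 2.25e-05). None of the 19 called glutathione S-transferases had a called interaction, where 67 of all 961 called genes did. That share is too small for none among 19 to set the family apart.

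**Figure D5:**
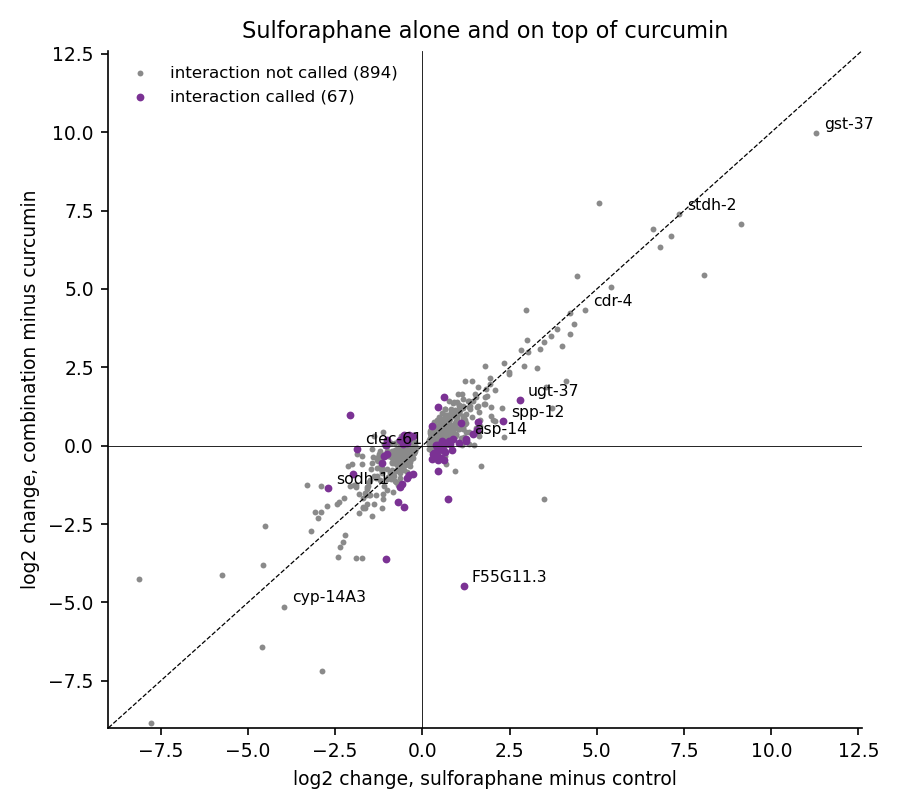
Log2 change of the 961 called genes, sulforaphane minus control, against their log2 change in the combination minus curcumin, which shares no library with it. The dashed line marks equal change, and the 67 genes with a called interaction are purple. Most points lie in the quadrants of equal sign, as 867 of 961 did.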

How the data were processed

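Whole worms were measured by polyA RNA sequencing in 4 groups of 4 libraries, and the series' design text calls the replicates independent biological ones. The authors deposited a table of raw counts per gene for 47029 genes and a table of FPKM values. The submitters' processing notes name HISAT2 2.0.5, StringTie 1.3.3b, featureCounts 1.5.0-p3, DESeq2 1.20.0 and the build WBcel235, without saying which step each made. Whether counting used strand is not given in the sources used here, so overlapping genes are called uncertain where the neighbour holds at least 10% as many reads. Gene names came from the deposited table, and 93 loci had no annotation. Chromosomes were looked up in a RefSeq table, which held 46920 of the genes.

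Counts were fitted with edgeR 4.0.16 (R 4.3.3) over all 16 libraries with 1 mean per group, TMM factors and the quasi-likelihood test. Genes were kept with filterByExpr (minimum count 10, minimum total 15), and p-values were Benjamini-Hochberg adjusted over all 14328 tested genes. The combination against curcumin and the interaction came from the same fit. The scripts were tested on simulated data. Counting intervals cover counting error only.

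The comparison and the gene lists were chosen with earlier results of these data known, and some name patterns were corrected after the data were seen. Genes could be named from the 12 largest rises and falls with a mean of at least 5 CPM, up to 3 each way per list with at least 1 CPM, and members of pathway lists written gene by gene. Alternatives were DESeq2 1.42.0, limma 3.58.1 on log2(FPKM + 1) and log2(FPKM + 0.1), 2 other scalings, 2 other filters, the 2 groups alone, the replicate number as a block, and each library left out. Those for the interaction and the shared sign were chosen after seeing the data.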

Additional observations from a re-analysis of the deposited data

Results flagged for a closer look

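Of 242 groups of 4 values for the 121 genes printed here, 13 had 1 library far from the other 3, close to the 1 in 20 that chance gives. With sulforaphane these were replicate 4 of *mct-1* (25.7 CPM), *sdz-8* (6.98 CPM) and *sptl-3* (129 CPM), replicate 2 of *atfs-1* (86.8 CPM) and *dhs-5* (46.1 CPM), replicate 1 of *cth-1* (48.3 CPM) and replicate 3 of E01A2.1 (41.0 CPM). In the controls they were replicate 4 of *irg-7* (1825 CPM), *lec-10* (144 CPM) and *mtl-1* (95 CPM), replicate 2 of *cnc-2* (8.86 CPM) replicate 1 of *gsr-1* (103 CPM) and replicate 3 of *gst-37* (0.0624 CPM, the 1 read in the controls).

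The response to sulforaphane differed with and without curcumin, by the edgeR interaction term, in 19 of these genes. The log2 change was lower with curcumin by the interaction value of -1.53 for *spp-12*, -1.32 for *ugt-37*, -1.12 for *col-80*, -1.07 for *hmit-1.1* and -1.03 for *asp-14*. Smaller interactions of the same sign were -0.51 for *hsp-4*, -0.49 for *irg-7*, -0.47 for *elo-2*, -0.43 for *nspg-14* and -0.41 for *lec-10*. For *scl-2* the interaction was -0.68, a deeper fall with curcumin. Among genes that fell, it was above 0 for *clec-61* (1.78), *sodh-1* (1.35), *cyp-14A2* (1.07), *lys-4* (0.77), *pmp-4* (0.63), *ftn-1* (0.62) and *scl-24* (0.61). For *asp-17*, which rose, it was 0.93.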

How the results depend on the processing

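The count of 961 genes lay between 955 and 1222 under the other scalings, filters and tests, among them 1021 with DESeq2 size factors, 1164 with the DESeq2 test and 983 with limma on FPKM. When each of the 8 control and sulforaphane libraries was left out in turn, 735 to 920 were called, the fewest without sulforaphane replicate 2, with 473 to 664 higher and 250 to 287 lower. Leaving out each of the other 8 libraries, which enter the fit through the shared spread, gave 943 to 1142, the most without combination replicate 3. With a fold change of at least 2 added, 209 were called, 111 higher and 98 lower, and 234 in the combination against curcumin. That comparison gave 856 to 1014 with one of its own 8 libraries left out. The count of called interactions was the least stable: 352 with every gene that had a read, 224 with the DESeq2 test, 318 with the replicate block, 39 with a fold change of at least 2, and 107 to 161 with each of the 16 libraries left out. The cause was not tested. The share of the same sign on top of curcumin was 85.3% to 92.4% in these, the fold change rule aside, for which it was not run.

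With the replicate number as a block, 1469 genes were called, 932 higher and 537 lower, including all 961. Deviations of same-numbered control and sulforaphane libraries had correlations of 0.137, 0.175, 0.0234 and 0.168. For control replicates 1, 2 and 4 the same-numbered library gave the highest correlation, but control replicate 3 correlated more with sulforaphane replicate 2 (0.0327) than with replicate 3. The labels name no batch shared by number, so the main fit did not pair the libraries. For curcumin and the combination the same-number correlations were 0.0458, 0.168, 0.0541 and 0.178. With the block, lists without a call gained some: 3 genes of glycolysis and the citric acid cycle, 3 of the vacuolar ATPase and 2 of the p38 pathway were higher. Genes of the unfolded protein response of the endoplasmic reticulum went from 3 to 7 higher and proteasome subunits from 6 to 9.

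Of the 118 called genes printed here 99 kept their call in every alternative run that tested them, and no printed gene changed sign. Some, such as *gst-37*, *gst-31* and *asp-15*, were tested in 16 runs, where most genes were tested in 17. The fold change rule and the left-out curcumin and combination libraries were not applied to single genes. Genes with a few reads per library, such as *gst-34*, are the least precise.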

Other observations

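Some smaller families, formed by gene name and not described above, also held more called genes than the 6.71% over all tested genes. Of 12 tested nspg genes 6 rose and none fell, with a median log2 change of 0.28. *nspg-14* went from 495 ± 38.9 to 674 ± 33 CPM (SD, n = 4, edgeR adjusted p 3.88e-05). Of 11 scl genes, named for secreted cysteine-rich proteins, 5 fell and none rose, with a median of -0.45. *scl-2*, named after its values were seen, fell by 0.64 on the log2 scale (edgeR adjusted p 1.91e-05) and *scl-24* by 1.17 (edgeR adjusted p 2.85e-08). Of 12 galectin genes 4 rose, among them *lec-6* (log2 change 0.47) and *lec-10* (log2 change 0.56), and 1, *lec-7*, fell by 0.86 (edgeR adjusted p 0.0271), but was not called without control replicate 1 or 4 or sulforaphane replicate 2 or 3. Limma on FPKM values did not call *lec-7* either. Of 11 fipr genes 4 rose and none fell, and *fipr-24* went from 2.87 to 12.1 CPM (log2 change 2.07, edgeR adjusted p 7.9e-07).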
